A study of Mus musculus with 9 samples.

Results

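The PIWI, Tudor and piRNA pathway genes are 33 genes taken by their symbols from a list. It holds PIWI proteins that PRMT5 methylates, Tudor domain proteins, among them readers of symmetric dimethylarginine, and other factors of the piRNA pathway. All 33 were found among the 53801 genes of the count table, and all 33 were among the 22452 genes that passed a filter on low counts and were tested. By role, 3 encode PIWI proteins, 11 Tudor domain proteins, 11 factors of piRNA processing and the germ granule, 6 nuclear or transposon silencing factors, and 2 regulators of piRNA cluster transcription.

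The values come from 9 RNA-seq libraries of mRNA from cultured mouse SSCs (spermatogonial stem cells, the self-renewing germ cells of the adult testis). The cells derived from Prmt5 flox/flox; Rosa26-CreERT2 mice, in which the recombinase is driven by a ubiquitous promoter and 4-hydroxytamoxifen (4OHT, 1 µM) deletes Prmt5 in the dish. All 9 libraries share this genotype and 4OHT treatment, and no ethanol-treated control was analysed here, so a change caused by the deletion itself cannot be read from these comparisons. There were 3 libraries of cells with 4OHT alone, 3 of cells that were also given lentiviral PRMT5 (E444Q), a form of the enzyme without catalytic activity, and 3 of cells given lentiviral PRMT5 (WT). The labels name the last pair of groups MU and OE without spelling them out, and reading MU as PRMT5 (E444Q) and OE as PRMT5 (WT) is taken from the design of the study. The culture method of the study grows SSCs on a layer of mitotically inactivated mouse fibroblasts. The sources used here do not say whether the 3 libraries of a group came from separate cultures, so p-values measure the spread between these libraries, which may be technical.

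piRNAs are small RNAs of the germ line that are bound by PIWI proteins and guide the silencing of transposons. PRMT5 places symmetric dimethylarginine on arginine-rich stretches of PIWI proteins, and Tudor domains bind these marks and bring PIWI proteins into germ granules, where piRNAs are trimmed and amplified. In the mouse testis, Piwil2 and part of the machinery are used from the fetal germ cell onward, whereas Piwil1, Tdrd6 and Mybl1 are known for the meiotic and later stages.

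Promoter sequence is shown first, as a description of the genes. Promoters, from 250 bases before to 50 bases after a gene's start (RefSeq, GRCm38.p6), were matched by symbol for 25 of the 33 genes (not for Piwil2, Tdrd6, Rnf17, Pnldc1, Morc1, Tex15, Spocd1 and Mybl1). The letters CACGTG, an E-box that reads the same on both strands and is bound by factors such as MAX, were searched. They occurred in at least 1 promoter of 10 of the 25 genes (40.0%) and of 2187 of 27025 genes in the table (8.09%). The window of up to 30 bases around the first match is printed for these 10 genes on the strand of the gene, with the E-box in capitals.
Piwil1, chr5:128736055-128736084, plus strand: aaaaccgccaccCACGTGgcagccaatcag
Tdrd1, chr19:56826186-56826215, plus strand: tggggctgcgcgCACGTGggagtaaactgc
Tdrd9, chr12:111971382-111971411, plus strand: ggtctccataaaCACGTGcctgtccaggtc
Stk31, chr6:49395472-49395501, plus strand: aggccggccaccCACGTGaccagggctgcg
Mov10l1, chr15:88982744-88982765, plus strand: ccttCACGTGctaaccgccaac
Mael, chr1:166238950-166238979, minus strand: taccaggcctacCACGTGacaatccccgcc
Ddx4, chr13:112652322-112652351, minus strand: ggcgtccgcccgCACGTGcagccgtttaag
Pld6, chr11:59787673-59787702, minus strand: ggggcgggctggCACGTGttgggcgcgcaa
Fkbp6, chr5:135350128-135350157, minus strand: tgcgcctgccatCACGTGtgcagcgcgtgc
Dnmt3l, chr10:78049786-78049815, plus strand: cactcctcccctCACGTGctgggctcctta

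In Ddx4 the match began at position -29 from the annotated start, and in Tdrd1 at -11. For Stk31, the Tudor gene with the largest change from 4OHT alone, the whole 250 bases before the start at the more upstream of its annotated promoters (chr6:49395289-49395538, plus strand) are printed, again with the E-box in capitals.
Stk31 upstream: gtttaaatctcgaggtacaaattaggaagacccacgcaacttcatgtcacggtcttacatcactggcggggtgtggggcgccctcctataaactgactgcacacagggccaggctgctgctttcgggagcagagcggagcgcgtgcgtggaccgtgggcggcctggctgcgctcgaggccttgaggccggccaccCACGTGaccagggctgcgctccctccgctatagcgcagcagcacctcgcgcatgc
The promoters of these genes were also rich in CpG, which the E-box contains. The median number of CpG was 25 in the promoters of the 25 genes against 8 over all genes, and the part of CpG content in the share of E-boxes was not tested. For 28 of the 36 promoters of these genes, the first 30 transcribed bases were found in a GENCODE transcript of the gene. They were not for the printed Stk31 start or for the Pld6 start with the E-box. The Stk31 E-box also lies in its other promoter, for which they were found. The Dnmt3l match lies downstream of its first listed promoter. A match is a description of the letters and not a site of binding.

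The libraries held 78751996 to 365719548 counts, and the 3 PRMT5 (E444Q) libraries, with at least 192033300 counts, were the deepest. Levels are given as TMM-normalized CPM, the share of a library's effective total that a gene takes, on a scale common to all libraries. A floor of 12 counts, about 3 read pairs, corresponded to 0.0317 to 0.158 CPM, covering counting error only, and the lowest value of any of the 33 genes was 28 counts (Tdrd6). Prmt5 itself was at 28.2 to 31.9 CPM with 4OHT alone, 145 to 147 CPM with PRMT5 (E444Q) and 1071 to 1085 CPM with PRMT5 (WT), so PRMT5 (E444Q) and PRMT5 (WT) were unequal in Prmt5 mRNA (log2 fold change -2.88, standard error 0.052, adjusted p = 1.09e-12 from edgeR) as well as in the mutation. The labelled cell type was checked by its markers, and all 18 spermatogonial markers were detected. They did not move together, and with each construct 13 were called higher and 4 lower than with 4OHT alone under TMM. The 4 lower were Etv5 (9.58% of 4OHT alone with PRMT5 (WT)), Gfra1 (23.5%), Ret (53.9%) and Zbtb16 (68.6%), genes known for SSC self-renewal. Among those called higher, Kit, a gene of differentiating spermatogonia, was 5.02-fold higher with PRMT5 (WT). Utf1 (2.21-fold) and Uchl1 (1.85-fold), used by the study as markers of undifferentiated primate spermatogonia, were called higher as well. Id4, a mouse SSC marker of the study, was not called (92.5%). The 15 fibroblast markers were abundant too, and their summed level was 12500 to 15040 CPM with 4OHT alone, 6237 to 6336 CPM with PRMT5 (E444Q) and 4872 to 4946 CPM with PRMT5 (WT).

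The 33 genes spanned a wide range of levels. Genes were compared per kilobase of merged exons, which can be longer than the mRNA present and then puts a gene too low. The highest with 4OHT alone were Tex19.1 (116 CPM per kb), a factor that restrains transposons, Fkbp6 (110.5), a co-chaperone of PIWI loading, Ddx4 (98.8), the germ cell helicase VASA, and Piwil2 (97.0). With either construct, Mael headed the order, at 204 CPM per kb with PRMT5 (E444Q) and 207 with PRMT5 (WT), while Tex19.1 stood at 114 and 111. The lowest in every group was Tdrd6, a Tudor protein of the chromatoid body of spermatids, at 0.068 CPM per kb in the 4OHT libraries, 0.14 for PRMT5 (E444Q) and 0.17 for PRMT5 (WT). Mybl1, which encodes the transcription factor A-MYB of pachytene piRNA clusters, was next to lowest, at 1.72 to 1.94 CPM per kb. Replicates were close, with a median coefficient of variation over the 33 genes of 6.91% in the 4OHT libraries, 1.89% for PRMT5 (E444Q) and 3.51% for PRMT5 (WT).

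**Figure D1:**
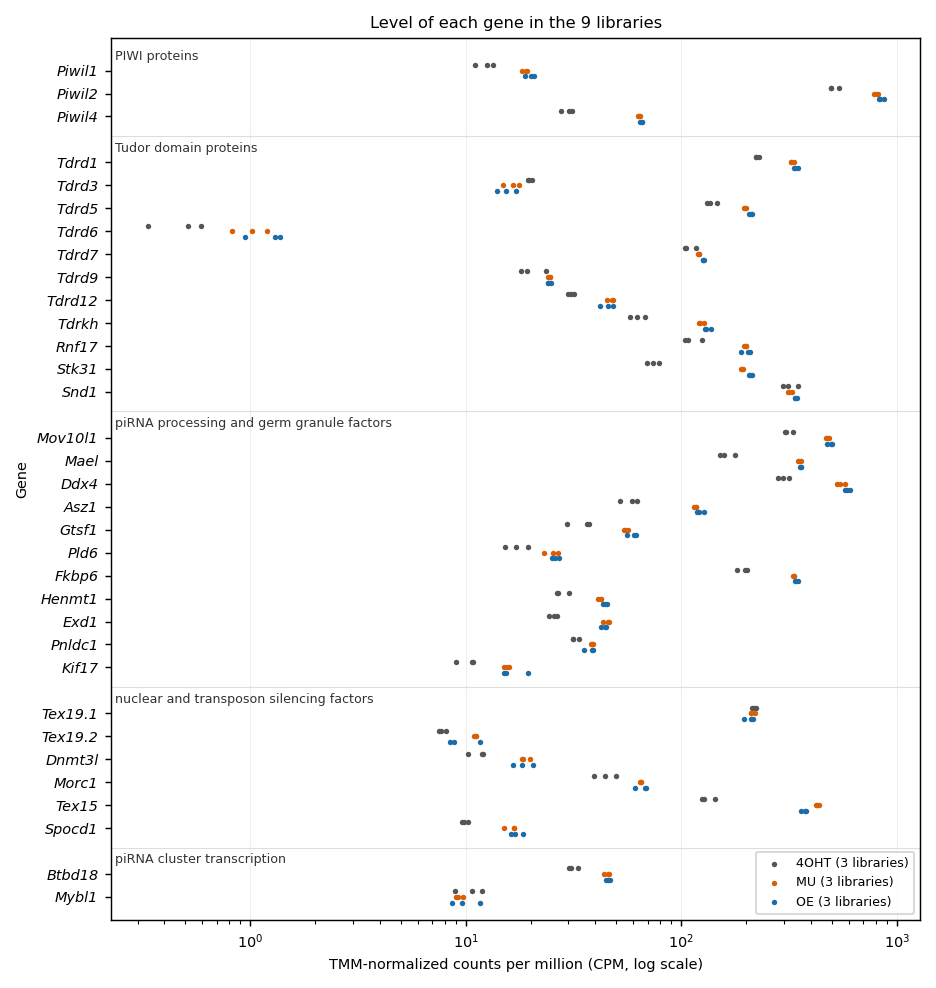
Level of each of the 33 genes in each of the 9 libraries, in TMM-normalized CPM on a log axis, ordered by role. Points are single libraries. The 4OHT libraries lie to the left of both constructs for most genes on this scale, as for Piwil4 (27.8 to 31.3 CPM against 63.3 to 66.1), and to the right for Tdrd3, and with libraries scaled on 13 germ cell genes the direction turns for 22 genes with PRMT5 (WT) and 18 with PRMT5 (E444Q).

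PRMT5 (WT) was compared with 4OHT alone to ask which of the genes differed between cells with and without the construct. No library is labelled as an empty-vector control, so lentiviral transduction and the return of the enzyme cannot be told apart here. At an adjusted p under 0.05, 29 of the 33 genes were higher and 1, Tdrd3, was lower with PRMT5 (WT), relative to TMM. Over all genes tested, 29.9% were called higher and 27.9% lower. The median log2 fold change was 0.69 over the 33 genes and 0.02 over all genes. The largest increases were those of Stk31 (2.83-fold) and Tex15 (2.81-fold), and Snd1, Tex19.1 and Mybl1 did not pass the test. With PRMT5 (E444Q) against the same 4OHT libraries, 29 genes were higher and 1, Tdrd3, was lower, where 29.5% of all genes were called higher and 26.5% lower. The median was 0.61 over the 33 genes and 0.04 over all genes. Both comparisons use the same 3 control libraries and are therefore not independent.

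These directions rest on the scaling of the libraries. Libraries were also scaled on the summed counts of 13 germ cell genes that are not among the 33. These were Dazl, Dnd1, Sall4, Lin28a, Taf4b, Rhox13, Dppa3, Tex101, Dmrt1, Mageb16, Rhox10, Rhox1 and Nanos3. Dazl and Dmrt1 had the highest levels (381 and 327 CPM with 4OHT alone). The study reports that DMRT1 protein fell with the deletion and was restored by PRMT5 (WT) but not PRMT5 (E444Q). From its RNA-seq it reports lower Dmrt1 expression in the PRMT5 (E444Q) group. Here, under TMM, Dmrt1 mRNA averaged 471 CPM with PRMT5 (E444Q) and 499 CPM with PRMT5 (WT). It was called higher than in 4OHT alone with both (log2 fold changes 0.53 and 0.61). Between the constructs it was not called (-0.08, adjusted p = 0.535 from edgeR). Whether the scale is neutral was not tested. On it, 7 of the 33 genes were called higher and 16 lower with PRMT5 (WT), and 7 higher and 10 lower with PRMT5 (E444Q). Over all genes, 6.40% were then called higher and 66.4% lower with PRMT5 (WT), and 7.35% higher and 60.7% lower with PRMT5 (E444Q). That scaling moved the median log2 fold change of all genes from 0.02 to -0.83 and from 0.04 to -0.69. The median of the 33 genes became -0.16 and -0.12, so the genes as a group stayed above all genes while standing slightly below the 13 germ cell genes. The 7 called higher with PRMT5 (WT) on this scaling were Stk31, Tex15, Piwil4, Mael, Tdrkh, Asz1 and Ddx4. Under TMM, 11 of the 13 germ cell genes were themselves called higher with each construct, while Dppa3 and Nanos3 were called lower (-0.54 and -0.57 with PRMT5 (WT)). The median log2 fold change of the 13 was 0.90 with PRMT5 (WT) and 0.77 with PRMT5 (E444Q). Their summed level was 1263 to 1320 CPM with 4OHT alone, 2103 to 2157 with PRMT5 (E444Q) and 2300 to 2329 with PRMT5 (WT). All 15 fibroblast markers fell with PRMT5 (WT) and 14 of 15 with PRMT5 (E444Q). In these bulk libraries, fewer germ cells and less of these mRNAs per germ cell cannot be told apart, and the part of cell composition in the changes was not tested.

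**Figure D2:**
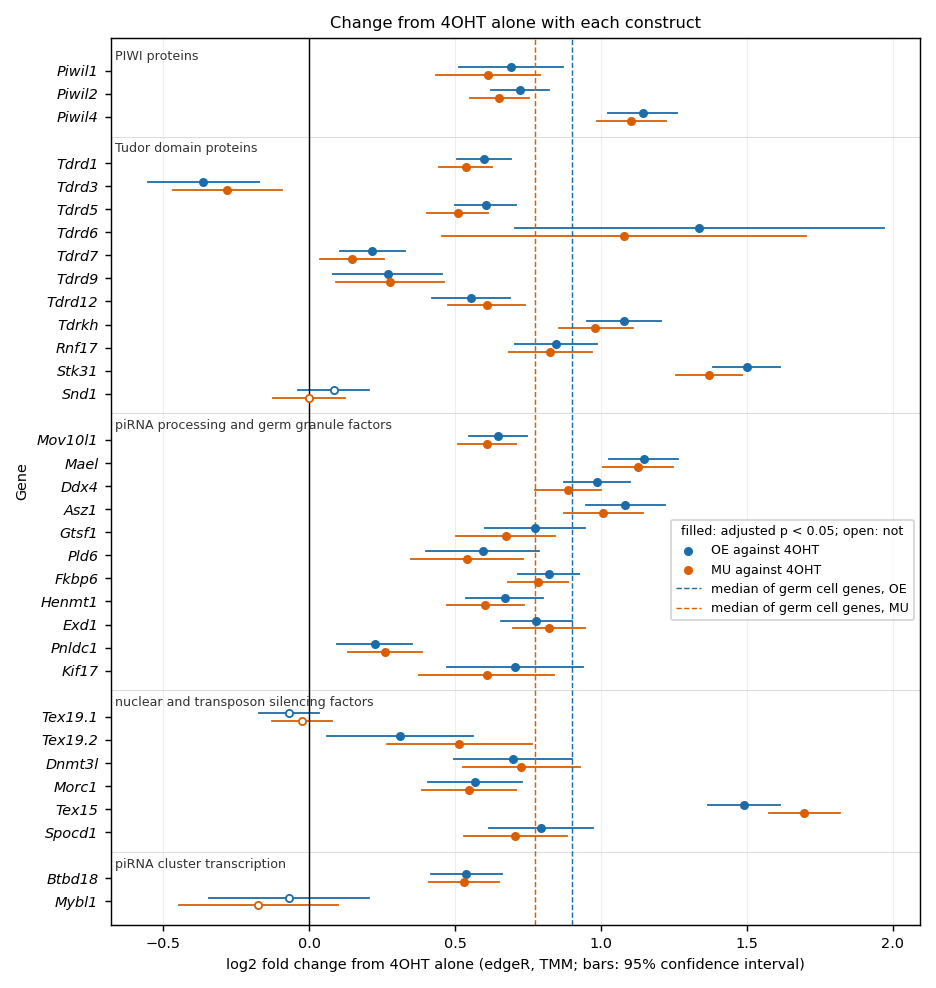
log2 fold change of each gene from 4OHT alone with PRMT5 (WT) (OE) and PRMT5 (E444Q) (MU) in the edgeR fit with TMM scaling, with bars for the 95% confidence interval. Filled points had an adjusted p under 0.05, and dashed lines mark the median of 13 germ cell genes (0.90 and 0.77). Only Tdrd3 was called lower, and a scaling on the germ cell genes, which moves zero to about these lines, turns the sign of 22 genes with PRMT5 (WT) and 18 with PRMT5 (E444Q).

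**Figure D3:**
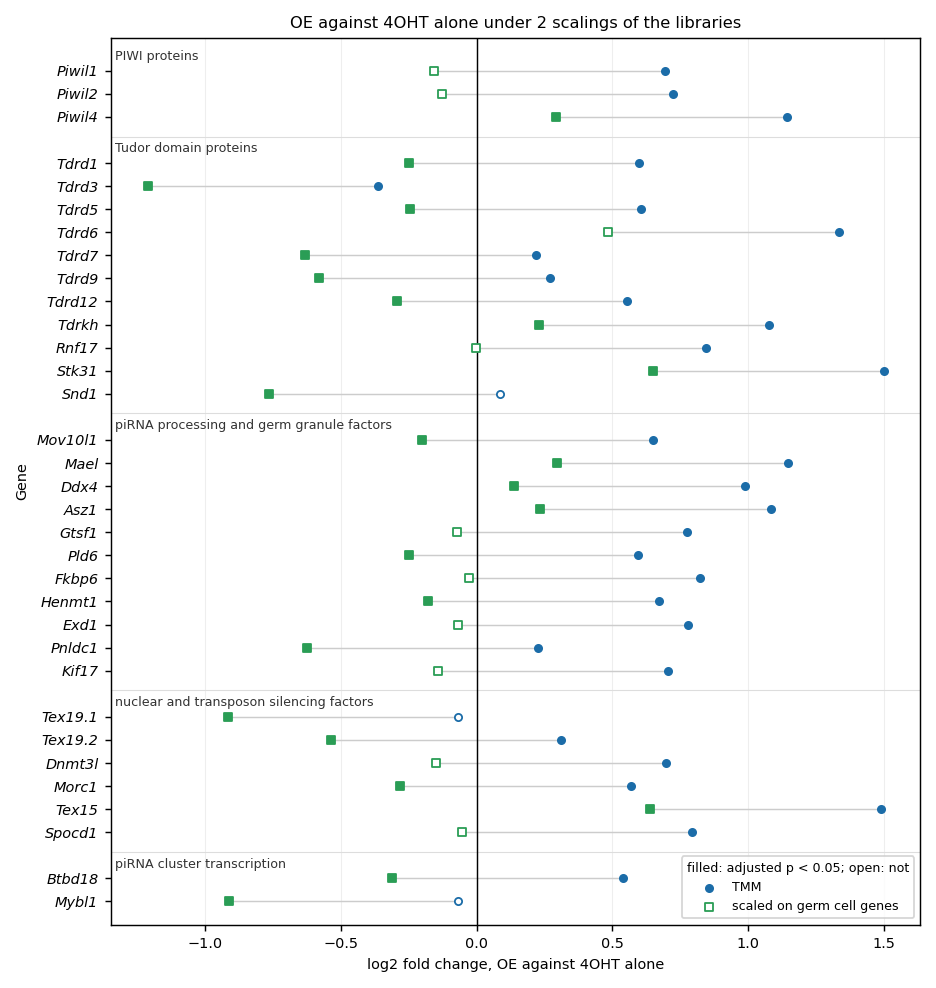
log2 fold change of each gene with PRMT5 (WT) against 4OHT alone with the libraries scaled by TMM (circles) and on 13 germ cell genes (squares). Filled symbols had an adjusted p under 0.05. Under TMM 29 genes were higher and 1 lower, and on the germ cell genes 7 were higher and 16 lower. Over all genes, 29.9% were higher and 27.9% lower under TMM, and 6.40% and 66.4% on the germ cell genes.

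The 3 PIWI genes were higher with both constructs under TMM, and of them only Piwil4 remained called when the libraries were scaled on the germ cell genes. Piwil2 (ENSMUSG00000033644, chr14:70372477-70429383, minus strand in GENCODE M21 on GRCm38), which encodes MILI, was the most abundant of the 3 per kilobase (97.0 CPM per kb with 4OHT alone, against 5.51 for Piwil4 and 2.83 for Piwil1). It stood at 498, 498 and 542 CPM with 4OHT alone, at 788, 810.1 and 817 CPM with PRMT5 (E444Q) and at 870.3, 841 and 826 CPM with PRMT5 (WT). The 6 libraries with a construct lay above the 3 without, and the construct groups did not overlap each other. The level was higher by 1.65-fold with PRMT5 (WT) (log2 fold change 0.72, standard error 0.047, adjusted p = 1.12e-08 from edgeR) and by 1.57-fold with PRMT5 (E444Q). On the germ cell scaling the log2 fold changes of Piwil2 were -0.13 and -0.08, and neither passed the test.

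Piwil4 (ENSMUSG00000036912, chr9:14696230-14740733, minus strand) encodes MIWI2, the PIWI protein that enters the nucleus and guides DNA methylation of transposons in fetal germ cells. Its level was 30.02, 27.8 and 31.3 CPM with 4OHT alone, 63.3, 64.2 and 63.9 CPM with PRMT5 (E444Q) and 64.7, 66.1 and 65.9 CPM with PRMT5 (WT). None of the 3 groups overlapped another, though the constructs lay close together. The fold was 2.21 with PRMT5 (WT) (log2 fold change 1.14, adjusted p = 5.43e-10 from edgeR) and 2.15 with PRMT5 (E444Q), and on the germ cell scaling the log2 fold changes were 0.29 and 0.37, still called.

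Piwil1 (ENSMUSG00000029423, chr5:128702524-128755474, plus strand) encodes MIWI, which loads the abundant piRNAs of pachytene spermatocytes. It was low, at 11.0, 12.5 and 13.4 CPM with 4OHT alone, 19.0, 18.3 and 19.3 CPM with PRMT5 (E444Q) and 20.2, 18.8 and 20.7 CPM with PRMT5 (WT). Both construct groups lay above 4OHT alone and overlapped each other. The log2 fold change was 0.69 with PRMT5 (WT) (adjusted p = 6.28e-06 from edgeR) and 0.61 with PRMT5 (E444Q), and on the germ cell scaling it was -0.16 and -0.12, neither called.

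Of the 11 Tudor domain genes, 9 were higher, Tdrd3 was lower and Snd1 did not pass the test with PRMT5 (WT) under TMM, and scaled on germ cell genes 2 were higher and 7 lower. The same counts with PRMT5 (E444Q) were 9 higher and 1 lower under TMM, and 2 higher and 6 lower on the germ cell scaling. Stk31 (ENSMUSG00000023403, chr6:49395604-49469501, plus strand), which encodes a germ cell protein with a Tudor domain and a kinase-like domain, showed the largest change. It stood at 79.3, 73.7 and 69.3 CPM with 4OHT alone, 191, 190.3 and 193 CPM with PRMT5 (E444Q) and 214, 208 and 206 CPM with PRMT5 (WT). None of the 3 groups overlapped another. Against 4OHT alone its log2 fold change was 1.499 with PRMT5 (WT) (standard error 0.053, adjusted p = 2.83e-11 from edgeR) and 1.37 with PRMT5 (E444Q), and on the germ cell scaling it was 0.65 and 0.64.

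Tdrd3 (ENSMUSG00000022019, chr14:87416639-87545504, plus strand) moved in the opposite direction. It encodes a widely expressed Tudor protein that reads methylated arginine on histones and RNA polymerase II and is not specific to germ cells. Its level was 20.4, 19.5 and 19.7 CPM with 4OHT alone, 14.9, 17.6 and 16.5 CPM with PRMT5 (E444Q) and 14.0, 17.0 and 15.3 CPM with PRMT5 (WT). The construct libraries lay below those of 4OHT alone and overlapped each other. It fell to 77.8% of 4OHT alone with PRMT5 (WT) (log2 fold change -0.36, adjusted p = 0.00284 from edgeR) and to 82.4% with PRMT5 (E444Q) (-0.28, adjusted p = 0.0138 from edgeR), and on the germ cell scaling the log2 fold changes were -1.21 and -1.01. The call with PRMT5 (E444Q) was lost without the first PRMT5 (E444Q) library (-0.21, adjusted p = 0.0847) and without the filter on low counts (-0.22, adjusted p = 0.0797).

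Among the other Tudor genes, Tdrkh, whose product anchors PIWI proteins to mitochondria for piRNA trimming, rose 2.11-fold with PRMT5 (WT) and 1.97-fold with PRMT5 (E444Q). It also stayed higher on the germ cell scaling (0.23 and 0.25). Rnf17, a granule component of later germ cells, rose 1.80-fold and 1.77-fold under TMM and was not called on the germ cell scaling (log2 fold change -0.004 and 0.10). The partner of MILI, Tdrd1, had the highest level per kilobase of merged exons of the Tudor genes with 4OHT alone (41.3 CPM per kb). Snd1, with merged exons of 9757 bases against 5443 for Tdrd1, had a higher mean CPM (320 against 225). Tdrd1 was at 221 to 231 CPM with 4OHT alone and 322 to 349 CPM with a construct. It rose 1.51-fold and 1.45-fold under TMM, while on the germ cell scaling it fell (-0.25 and -0.20). Tdrd5 and Tdrd12, both needed for transposon silencing, rose 1.52-fold and 1.47-fold with PRMT5 (WT) and 1.42-fold and 1.52-fold with PRMT5 (E444Q). Scaled on the germ cell genes, Tdrd5 fell with both constructs (-0.24 and -0.22), and Tdrd12 fell with PRMT5 (WT) (-0.29) and was not called with PRMT5 (E444Q) (-0.12).

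Tdrd7 and Tdrd9 changed little. Tdrd7, a granule protein of germ cells and lens, was 1.16-fold higher with PRMT5 (WT) and 1.11-fold with PRMT5 (E444Q), and Tdrd9, a helicase that works with MIWI2, was 1.20-fold and 1.21-fold higher. On the germ cell scaling both fell, Tdrd7 by 0.63 and 0.58 and Tdrd9 by 0.58 and 0.46 on the log2 scale. Several of these calls turned on a single library. That of Tdrd7 with PRMT5 (E444Q) was lost without 4OHT replicate 1 (0.11) or 2 (0.13) and without any of the 3 PRMT5 (E444Q) libraries (0.13 to 0.15), and also in DESeq2 (0.12, adjusted p = 0.0637), with median-of-ratios size factors (0.12, adjusted p = 0.0729) and with counts divided by 4 (0.12, adjusted p = 0.0502). The call of Tdrd9 was lost without 4OHT replicate 1 or 2 with PRMT5 (WT) (0.22 and 0.20) and with PRMT5 (E444Q) (0.23 and 0.21), and with the latter also without PRMT5 (E444Q) replicate 2 or 3 (0.26 each).

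Tdrd6, the lowest of the 33 genes, was at 0.593, 0.335 and 0.513 CPM with 4OHT alone, at 1.20, 0.824 and 1.02 CPM with PRMT5 (E444Q) and at 0.948, 1.38 and 1.30 CPM with PRMT5 (WT). Both construct groups lay above 4OHT alone and overlapped each other. Its log2 fold change of 1.34 with PRMT5 (WT) had a 95% confidence interval from 0.70 to 1.97, and neither construct's change was called on the germ cell scaling (0.48 and 0.34). Snd1, which encodes a widely expressed Tudor nuclease, stood at 295 to 350.1 CPM with 4OHT alone, 315 to 328 CPM with PRMT5 (E444Q) and 337 to 343 CPM with PRMT5 (WT). Its log2 fold changes under TMM were 0.09 (adjusted p = 0.225 from edgeR) and 0.00 (adjusted p = 0.998 from edgeR), and without 4OHT replicate 3 that with PRMT5 (WT) was called (0.15, adjusted p = 0.00678). On the germ cell scaling it fell with both constructs (-0.77 and -0.73).

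All 11 genes of piRNA processing and the germ granule were higher with each construct under TMM, with medians of 0.77 with PRMT5 (WT) and 0.67 with PRMT5 (E444Q). On the germ cell scaling 3 were higher and 4 lower with PRMT5 (WT), and 3 higher and 1 lower with PRMT5 (E444Q). Over all genes, 29.9% and 29.5% were called higher under TMM, and 66.4% and 60.7% lower on the germ cell scaling. Mael (ENSMUSG00000040629, chr1:166201201-166238747, minus strand), whose product is found in nuage and is needed to silence transposons, led the 11 genes. It stood at 177, 152 and 157 CPM with 4OHT alone, 359.9, 349 and 353 CPM with PRMT5 (E444Q) and 359, 361 and 356 CPM with PRMT5 (WT). Both construct groups were clear of 4OHT alone and overlapped each other. The fold was 2.21 with PRMT5 (WT) (adjusted p = 5.97e-10 from edgeR) and 2.18 with PRMT5 (E444Q), and Mael remained higher on the germ cell scaling (log2 fold change 0.30 and 0.40).

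Ddx4 (ENSMUSG00000021758, chr13:112598333-112652475, minus strand), the VASA helicase that marks germ cells of every stage, was measured at 315, 296 and 282 CPM with 4OHT alone, 549, 529 and 575 CPM with PRMT5 (E444Q) and 607, 589 and 575 CPM with PRMT5 (WT). Its construct libraries lay above those of 4OHT alone and overlapped each other. The fold was 1.98 with PRMT5 (WT) (log2 fold change 0.99, adjusted p = 1.58e-09 from edgeR) and 1.85 with PRMT5 (E444Q), and on the germ cell scaling, where 0.14 and 0.16 were still called, the change was the smallest of the 7 genes called higher. Asz1, a mitochondrial scaffold of the granule, rose 2.12-fold and 2.01-fold, and 0.24 and 0.28 remained on the germ cell scaling.

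The genes of the processing machinery proper rose by less. Mov10l1, the helicase that feeds precursors into processing, was at 304 to 329 CPM with 4OHT alone and 469 to 499.7 CPM with a construct, 1.57-fold and 1.53-fold higher, and Fkbp6 rose 1.77-fold and 1.72-fold. Pld6, the mitochondrial nuclease that cuts precursors, rose 1.51-fold and 1.45-fold. Gtsf1, a cofactor of PIWI slicing, rose 1.71-fold and 1.59-fold, and Exd1, a partner of TDRD12 in piRNA amplification, 1.72-fold and 1.77-fold. Henmt1, which methylates the ends of piRNAs, rose 1.59-fold and 1.52-fold. Kif17, a kinesin found with MIWI in the chromatoid body, rose 1.63-fold and 1.52-fold from 9.04 to 10.8 CPM. The smallest change was that of Pnldc1, the exonuclease that trims piRNAs, at 1.17-fold and 1.20-fold. Of these 8, the germ cell scaling put Mov10l1 (-0.20), Pld6 (-0.25), Henmt1 (-0.18) and Pnldc1 (-0.62) lower with PRMT5 (WT) and Pnldc1 (-0.47) lower with PRMT5 (E444Q), and called the others in neither direction.

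Among the 6 nuclear and transposon silencing genes, 5 were higher and Tex19.1 did not pass the test with either construct under TMM. On the germ cell scaling 1 was higher, Tex15, with 3 lower with PRMT5 (WT) and 1 lower with PRMT5 (E444Q). Over all genes, 29.9% and 29.5% were called higher under TMM, and 66.4% and 60.7% lower on the germ cell scaling. Tex15 (ENSMUSG00000009628, chr8:33516738-33585582, plus strand) encodes a nuclear partner of MIWI2 needed for transposon methylation. It was measured at 144, 124 and 128 CPM with 4OHT alone, 435, 427 and 423 CPM with PRMT5 (E444Q) and 376, 358 and 379 CPM with PRMT5 (WT). None of the 3 groups overlapped another, and the level was highest with PRMT5 (E444Q). The fold was 2.81 with PRMT5 (WT) (log2 fold change 1.49, standard error 0.056, adjusted p = 5.31e-11 from edgeR) and 3.24 with PRMT5 (E444Q) (1.70, adjusted p = 2.58e-11 from edgeR), and on the germ cell scaling the log2 fold changes were 0.64 and 0.97.

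Spocd1, the other listed partner of MIWI2, was at 9.66 to 10.3 CPM with 4OHT alone and rose 1.73-fold and 1.63-fold. Dnmt3l, a cofactor of de novo DNA methylation, rose 1.62-fold and 1.66-fold, and Morc1, a chromatin ATPase, 1.48-fold and 1.46-fold. On the germ cell scaling Morc1 fell with PRMT5 (WT) (-0.28), while Spocd1 and Dnmt3l were not called. The paralogs Tex19.1 and Tex19.2 are neighbours on chromosome 11 and could share reads, so their values are uncertain. Tex19.1 was at 213 to 222 CPM with 4OHT alone, 210.3 to 219 CPM with PRMT5 (E444Q) and 196 to 215 CPM with PRMT5 (WT), so the groups overlapped (log2 fold change -0.07 and -0.02), and it fell on the germ cell scaling (-0.92 and -0.75). Tex19.2 was much lower, at 7.49 to 8.14 CPM with 4OHT alone, and rose 1.24-fold and 1.43-fold. Its call with PRMT5 (WT) was lost without 4OHT replicate 1 (0.29), 4OHT replicate 3 (0.28) or PRMT5 (WT) replicate 1 (0.17), with only the groups compared (0.29, adjusted p = 0.083) and with counts divided by 4 (0.27, adjusted p = 0.0562), and on the germ cell scaling it fell with PRMT5 (WT) (-0.54).

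Of the 2 regulators of piRNA cluster transcription, Btbd18, which promotes transcription of pachytene piRNA clusters, rose under TMM from 30.3 to 33.3 CPM with 4OHT alone to 44.0 to 46.7 CPM with a construct, and fell on the germ cell scaling (-0.31 and -0.20). Mybl1 did not pass the test under TMM, with log2 fold changes of -0.07 with PRMT5 (WT) and -0.17 with PRMT5 (E444Q), and fell on the germ cell scaling (-0.91 and -0.90). On that scaling 66.4% of all genes were called lower with PRMT5 (WT) and 60.7% with PRMT5 (E444Q).

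The 10 genes with a CACGTG E-box in a promoter were all among those called higher with PRMT5 (WT) under TMM, as were 12 of the 15 with a promoter sequence and no E-box. Over all genes tested, 29.9% were called higher. On the germ cell scaling, Tdrd1, Tdrd9, Mov10l1 and Pld6 of the 10 were called lower with PRMT5 (WT). Stk31, Mael and Ddx4 were called higher, and Piwil1, Fkbp6 and Dnmt3l in neither direction. Under TMM, the median log2 fold changes were 0.70 with the E-box and 0.61 without with PRMT5 (WT), and 0.67 and 0.60 with PRMT5 (E444Q). The difference between the sets was not tested.

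PRMT5 (E444Q) was then compared with PRMT5 (WT), which asks whether the missing catalytic activity was reflected in the mRNA of the genes. The mutation and the lower Prmt5 mRNA of that group cannot be told apart. By western blot, the study reports PRMT5 protein restored with either construct, so the gap in mRNA may not hold for protein. No gene of the 33 passed the test in edgeR, where 3.17% of all genes tested did, and 2 had an unadjusted p under 0.05, while DESeq2 called 1, Tex15. By value, 24 genes were lower and 9 higher with PRMT5 (E444Q), with a median log2 fold change of -0.06 against 0.01 over all genes. On the germ cell scaling, 31 were higher and 2 lower by value, with a median of 0.06 against 0.13 over all genes. The libraries of the groups did not overlap in 11 genes that were lower with PRMT5 (E444Q) and in 1 that was higher, where 12.8% and 13.0% of all genes did so.

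The genes with an unadjusted p under 0.05, named after their values were seen, were Tex15 and Stk31, whose values in each library are given above. Tex15 was 1.15-fold higher with PRMT5 (E444Q) (log2 fold change 0.21, 95% confidence interval 0.09 to 0.33, adjusted p = 0.0661 from edgeR), and its 3 libraries lay above all 3 of PRMT5 (WT). It passed the threshold in 5 of 13 alternatives, among them DESeq2 (0.20, adjusted p = 0.0195), the model of only the groups compared (adjusted p = 0.000669) and the germ cell scaling (0.33, adjusted p = 0.00534, where 6.86% of all genes were called), and over all alternatives the adjusted p ran from 0.000669 to 0.269. Stk31 was lower, at 91.5% of PRMT5 (WT) (log2 fold change -0.13, 95% confidence interval -0.24 to -0.02, adjusted p = 0.293 from edgeR), and passed only in the model of the groups compared (adjusted p = 0.0155). On the germ cell scaling the difference in Stk31 was -0.01.

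For the other genes the intervals bound how large a difference could have gone unseen under TMM only, and they leave out any error of the scaling. The difference in Piwil2 was -0.07 on the log2 scale with a 95% confidence interval from -0.17 to 0.03, that in Piwil4 -0.04 (-0.15 to 0.08) and that in Ddx4 -0.10 (-0.21 to 0.01). On the germ cell scaling Piwil2 was at 0.047 and Ddx4 at 0.018, above the upper limits of their TMM intervals (0.029 and 0.012). Piwil1, with fewer counts, had a wider interval (-0.25 to 0.10). The widest was that of Tdrd6, from -0.85 to 0.34. A p above the threshold does not show that the constructs act alike on these genes.

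**Figure D4:**
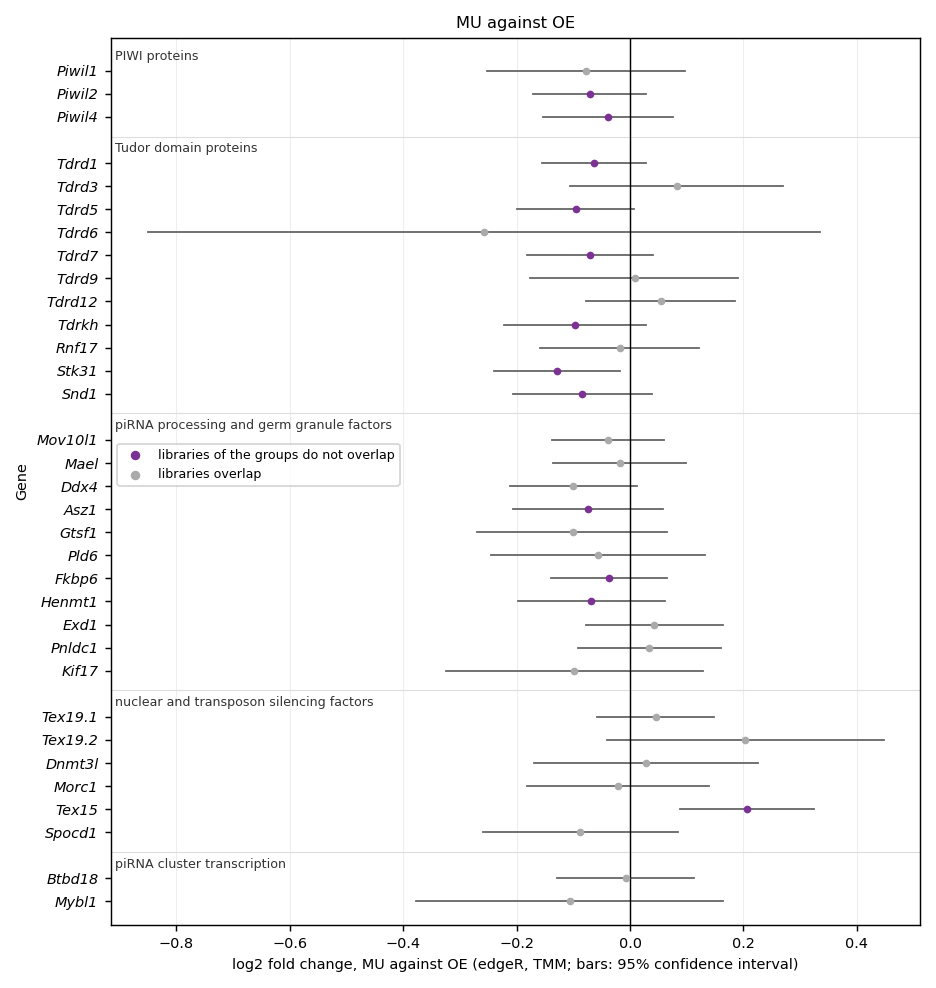
log2 fold change of PRMT5 (E444Q) (MU) against PRMT5 (WT) (OE) for each gene under TMM, with bars for the 95% confidence interval from edgeR. Purple points mark the 11 lower genes and 1 higher gene whose libraries did not overlap between the groups. No gene had an adjusted p under 0.05, and on the germ cell scaling the sign of 22 genes turned.

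Markers of other cells moved with these groups. The summed level of the 33 genes was 3228 to 3361 CPM with 4OHT alone, 5296 to 5330 with PRMT5 (E444Q) and 5389 to 5502 with PRMT5 (WT). That of 18 meiotic genes, of which Piwil1 and Tdrd6 are members of both lists, was 224 to 259, 650 to 691 and 666 to 701 CPM. Most of it with PRMT5 (E444Q) came from Tex11, Sycp1, Sycp2 and Sycp3 (means of 167, 163, 131 and 97.7 CPM). Under TMM, 11 meiotic genes were called higher with PRMT5 (WT) and 12 with PRMT5 (E444Q), while Spo11 was called lower with both (10.4% and 23.6% of 4OHT alone). The sum of 15 macrophage genes was 181 to 196, 1146 to 1179 and 2235 to 2359 CPM, of which Lyz2 alone gave 145 to 158, 925 to 954 and 1834 to 1937 CPM. Under TMM, 11 of the 15 macrophage genes were called higher with each construct, while C1qa, C1qb and C1qc were called lower with each (22.3%, 24.6% and 12.6% of 4OHT alone with PRMT5 (WT)) and Aif1 with PRMT5 (E444Q). Of 10 spermatid genes 5 passed the filter, with sums between 1.94 and 5.19 CPM. The 7 Sertoli cell markers that passed, of 8, summed to 19.6 to 29.4 CPM and the 2 Leydig cell markers that passed, of 6, to 4.44 to 7.08 CPM, nearly all of it from Star. Between the constructs, 13 of the 15 fibroblast markers were higher and 9 of the 15 macrophage markers lower with PRMT5 (E444Q). The part of these cells in the results was not tested.

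**Figure D5:**
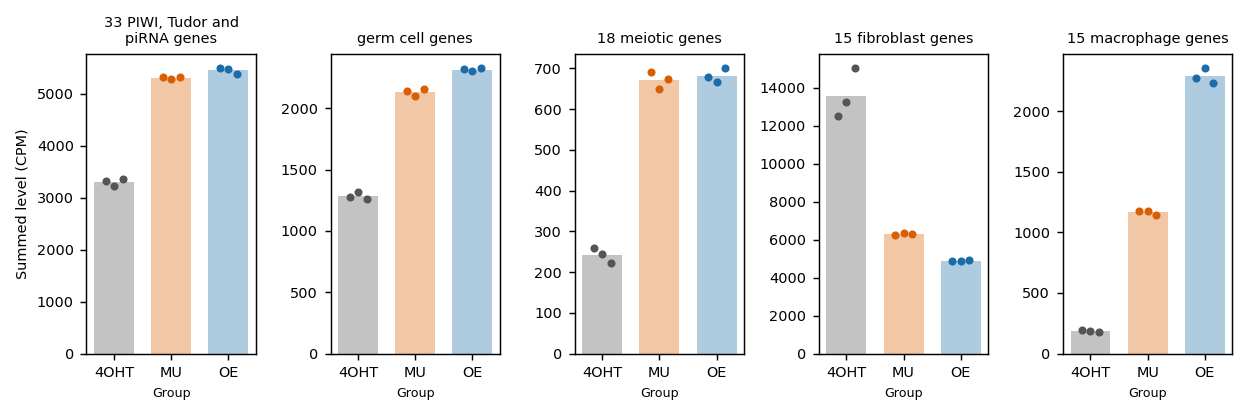
Summed level, in TMM-normalized CPM, of the 33 genes and of 4 marker lists in each library (points), with bars for the mean of the 3 libraries. The 33 genes, the germ cell genes, the meiotic genes and the macrophage genes summed higher with either construct than with 4OHT alone, and the fibroblast genes lower, whereas on the germ cell scaling the median log2 fold change of the 33 genes was -0.16 with PRMT5 (WT) and -0.12 with PRMT5 (E444Q).

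Other genes around the pathway did not all move as the 33 did. Of 14 further piRNA pathway genes, 12 were tested, and under TMM 5 were higher and 4 lower with each construct, while on the germ cell scaling 2 were higher and 7 lower with PRMT5 (WT) and 1 higher and 6 lower with PRMT5 (E444Q). Of these, Dazl, Dnd1 and Nanos3 belong to the 13 genes that set that scale. Over all genes under TMM, 29.9% were called higher and 27.9% lower with PRMT5 (WT), and 29.5% and 26.5% with PRMT5 (E444Q). On the germ cell scaling 6.40% and 7.35% of all genes were called higher, and 66.4% and 60.7% lower. Gpat2, a mitochondrial protein of piRNA biogenesis, rose by 0.86 and 0.81 on the log2 scale under TMM and was not called on the germ cell scaling (0.006 and 0.08). Ybx2, an RNA-binding protein of germ cells, rose on both scalings (1.73 and 1.86 under TMM). Mov10, the widely expressed relative of Mov10l1, fell on both (-0.38 and -0.53 under TMM), as did the methyltransferase gene Dnmt3a (-0.48 and -0.59) and Nanos2 (-0.67 and -1.03), a repressor of differentiation in SSCs.

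Among the 5 genes of the PRMT5 methylosome, Wdr77, the obligate partner of PRMT5, rose with each construct under TMM (0.61 and 0.67), whereas on the germ cell scaling it fell with PRMT5 (WT) (-0.24) and was not called with PRMT5 (E444Q) (-0.07). Prmt5 itself was higher and Riok1, a substrate adaptor, lower on both scalings (Riok1 -0.65 and -0.48 under TMM). Another list held genes of other Tudor proteins or readers of symmetric dimethylarginine, of which 7 were tested. With PRMT5 (WT), 4 of them were higher and 1, Phf1, was lower under TMM. On the germ cell scaling none was higher and 6 were lower, with a median of -0.70. Over all genes, 29.9% were called higher and 27.9% lower with PRMT5 (WT) under TMM, and 6.40% and 66.4% on the germ cell scaling. Of 12 genes of Argonautes and miRNA processing, 5 were higher and 2 lower with PRMT5 (WT) under TMM, and none higher and 10 lower on the germ cell scaling, where their median was -0.80 against -0.83 over all genes. Ago2, the slicer of the somatic small RNA pathways, fell on both scalings (-1.47 and -1.45 under TMM), whereas Ago3 (0.78 and 0.86) and Ago4 (0.90 and 0.95) rose under TMM and were not called on the other. In these 4 lists, Prmt5 was the gene called between the constructs under TMM.

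Some of the 33 genes share exonic sequence with another gene, and whether reads were counted by strand is not given in the sources used here. The largest overlap was that of Tdrkh with Oaz3 on the opposite strand of chromosome 3, over 2255 bases or 36.7% of its exons, and Oaz3 was at 0.24 to 0.66 CPM against 58.1 to 138 CPM for Tdrkh. Henmt1 overlapped Gm9857 over 14.7% of its exons. Overlaps of 5 other genes covered at most 5.41% of their exons.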

How the data were processed

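RNA-seq libraries of mRNA were analysed from 9 samples, 3 per group, grouped by their titles. According to the methods and the processing notes of the submitters, reads were trimmed with BBmap and Trimmomatic 0.39, aligned to GRCm38 with HISAT2 2.2.1 and quantified with StringTie 2.2.1. The table deposited by the authors holds unnormalized counts, all whole numbers. How these became whole numbers, strand and the handling of multiply aligned reads are not given in the sources used here. A read pair was taken as about 4 counts.

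Counts were fitted in R 4.3.3 with edgeR 4.0.16 (filterByExpr by group with minimum count 10 and minimum total count 15, TMM, a quasi-likelihood model on all 9 libraries with group as its only term), with Benjamini-Hochberg adjustment over 22452 genes and a threshold of 0.05. The common biological coefficient of variation was 0.155. Alternatives were DESeq2 1.42.0, median-of-ratios size factors, no filter, only the groups compared, a replicate block, counts divided by 4, scaling on 13 germ cell genes, a 1.5-fold minimum and leaving out each library. The fit was tested on simulated data. Coordinates came from GENCODE M21 (GRCm38), which held 53706 of the 53801 identifiers, and promoters from RefSeq.

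The genes and lists were chosen with earlier results of these data known. All 33 genes are named, and values in every library are given for the PIWI genes, Ddx4, genes called between the constructs and the 4 genes with the largest called change in each direction of PRMT5 (WT) against 4OHT alone (1 was lower). No 2 libraries of a group agreed within sampling noise.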

Additional observations from a re-analysis of the deposited data

How the results depend on the processing

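The count of genes higher than with 4OHT alone kept within 1.5 times of 29 under every alternative except the scaling on 13 germ cell genes. That scaling gave 7 higher and 16 lower with PRMT5 (WT) and 7 higher and 10 lower with PRMT5 (E444Q). Of all genes, 66.4% and 60.7% were then called lower. The single lower gene, Tdrd3, was no longer counted at a minimum of 1.5-fold (0 with each construct), with PRMT5 (E444Q) also without the filter on low counts (0), and over the libraries left out in turn the count ran from 0 to 1. PRMT5 (E444Q) against PRMT5 (WT) called 1 gene higher, Tex15, without the filter, with only the groups compared, with counts divided by 4, on the germ cell scaling and in DESeq2 (1 in each), and 1 lower, Stk31, with only the groups compared. Over all genes, calls between the constructs numbered 712, and over the alternatives they ran from 241 at a minimum of 1.5-fold to 1565 with only the groups compared, with 432, 400 and 411 without PRMT5 (E444Q) replicate 1, 2 and 3, 1540 on the germ cell scaling and 1140 in DESeq2. At that minimum, 7918 genes were called with PRMT5 (WT) and 7382 with PRMT5 (E444Q) against 4OHT alone, against 12967 and 12571.

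The germ cell scaling also turned the log2 fold change of single genes. With PRMT5 (WT) against 4OHT alone these became Piwil1 -0.16, Piwil2 -0.13, Tdrd1 -0.25, Tdrd5 -0.24, Tdrd7 -0.63, Tdrd9 -0.58, Tdrd12 -0.29, Rnf17 -0.004, Snd1 -0.77, Mov10l1 -0.20, Gtsf1 -0.073, Pld6 -0.25, Fkbp6 -0.028, Henmt1 -0.18, Exd1 -0.070, Pnldc1 -0.62, Kif17 -0.14, Tex19.2 -0.54, Dnmt3l -0.15, Morc1 -0.28, Spocd1 -0.055 and Btbd18 -0.31. With PRMT5 (E444Q) against 4OHT alone they became Piwil1 -0.12, Piwil2 -0.080, Tdrd1 -0.20, Tdrd5 -0.22, Tdrd7 -0.58, Tdrd9 -0.46, Tdrd12 -0.12, Mov10l1 -0.12, Gtsf1 -0.056, Pld6 -0.19, Henmt1 -0.13, Pnldc1 -0.47, Kif17 -0.12, Tex19.2 -0.21, Dnmt3l -0.002, Morc1 -0.18, Spocd1 -0.024 and Btbd18 -0.20. Between the constructs they became Piwil1 0.040, Piwil2 0.047, Piwil4 0.079, Tdrd1 0.055, Tdrd5 0.022, Tdrd7 0.048, Tdrkh 0.021, Rnf17 0.10, Snd1 0.033, Mov10l1 0.080, Mael 0.10, Ddx4 0.018, Asz1 0.044, Gtsf1 0.017, Pld6 0.063, Fkbp6 0.081, Henmt1 0.050, Kif17 0.020, Morc1 0.097, Spocd1 0.031, Btbd18 0.11 and Mybl1 0.012.

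Other sign changes were in values near 0. Without the filter on low counts, Snd1 became 0.062 and Tex19.1 0.039 with PRMT5 (E444Q) against 4OHT alone, and between the constructs Rnf17 0.02, Mov10l1 0.001, Mael 0.021, Fkbp6 0.003, Morc1 0.017 and Btbd18 0.032. Median-of-ratios size factors and DESeq2 each gave Tdrd9 -0.003 between the constructs. Snd1 with PRMT5 (E444Q) was 0.005 with only the groups compared. With libraries left out in turn, Mybl1 ran from -0.21 to 0.037 with PRMT5 (WT), and with PRMT5 (E444Q) Tex19.1 ran from -0.055 to 0.003 and Snd1 from -0.067 to 0.063. Between the constructs the ranges were -0.023 to 0.015 for Btbd18, -0.042 to 0.11 for Dnmt3l, -0.11 to 0.004 for Pld6, -0.01 to 0.061 for Pnldc1, -0.003 to 0.025 for Tdrd9, -0.16 to 0.029 for Kif17, -0.073 to 0.011 for Morc1, -0.061 to 0.014 for Rnf17 and -0.20 to 0.026 for Mybl1. The causes were not tested.

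Same-numbered libraries did not deviate together in all pairs (correlations from -0.35 to 0.24), so the numbers were not taken to pair them. A replicate block gave 29 genes higher and 1 lower with each construct and 0 between them (Snd1 0.002 with PRMT5 (E444Q)). Tdrd6 rests on as few as 28 counts in a library.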
